A study of Rattus norvegicus with 18 samples.

Results

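rno-miR-146a-5p and rno-miR-146b-5p, here miR-146a-5p and miR-146b-5p, are the main mature products of the rat genes Mir146a and Mir146b. They are 2 of the 401 mature miRNAs counted in the deposited table and were taken by row name. Both had enough counts to be tested, as did 112 rows in all. The pair was chosen by values already known: both were among the miRNAs called higher in colesevelam-treated than in vehicle-treated obese livers in the same counts. The levels by group are therefore given as a description, without p-values, and they are not independent evidence of a response.

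miR-146 is best known, from human and mouse cells, as a brake on inflammatory signalling. Toll-like and interleukin-1 receptors act through the kinase IRAK1 and the adaptor TRAF6 to switch on the transcription factor NF-κB, which raises transcription of the miR-146a gene. The mature miRNA in turn represses the IRAK1 and TRAF6 mRNAs, which closes a negative feedback loop. In liver the pair is expressed by resident and infiltrating immune cells and also by other cell types. Its targets were not measured here.

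Small RNA from rat liver was sequenced in 18 libraries, in 3 groups of 6: obese Zucker diabetic fatty (ZDF) rats given colesevelam, obese ZDF rats given vehicle, and lean rats given no named agent. All were 8 weeks old and all carry the strain label ZDF-Leprfa/Crl, the lean rats included, so the lean group is known only by its name and phenotype. The fa allele disables the leptin receptor throughout the body, so the obese rats are a model of leptin-resistant obesity and diabetes. Colesevelam is a bile acid sequestrant, a polymer taken by mouth that holds bile acids back from uptake. The labels name no dose, no length of dosing and no vehicle. They also do not tie each library to its own animal, so p-values and spreads are between libraries and may hold technical differences.

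The mature sequences are shown because they explain why the pair is read together and why its counts can be mixed. They are RefSeq entries on the rat assembly GRCr8 and are identical to the sequences in the deposited table. Capitals mark the seed, bases 2 to 8, which sets most of the target choice.
miR-146a-5p: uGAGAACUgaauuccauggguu
miR-146b-5p: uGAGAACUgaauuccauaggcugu

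The seeds were the same. Among 693 rat mature miRNAs in the RefSeq table only these 2 had that seed, and so did only 2 rows of the deposited table. Counted from the 5′ end, the first 17 bases were the same, and 20 of the 22 bases of miR-146a-5p matched the longer miR-146b-5p. The differences, with the base of miR-146a-5p first, were G18A and U21C, and miR-146b-5p ran on for 2 further bases to a length of 24. A read trimmed to its first 17 bases would match both. Values that are not whole occurred once: in library 1 of the colesevelam group miR-146a-5p was listed at 55.5 and miR-146b-5p at 11.5, and in the other 17 libraries both values were whole numbers.

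The genes lie apart. In GRCr8 miR-146a-5p lies at chr10:28350053-28350074 on the minus strand, within a gene annotated as the long noncoding RNA LOC134480673. miR-146b-5p lies at chr1:255144874-255144897 on the plus strand, within the span of the protein-coding gene C1h10orf95. In the deposited table they are at chr10:28806796-28806817 and chr1:273520443-273520466, in a rat build that the sources used here do not name. The hairpin precursors are shown because nearly all counts came from the 5′ arm, which is in capitals.
pre-miR-146a: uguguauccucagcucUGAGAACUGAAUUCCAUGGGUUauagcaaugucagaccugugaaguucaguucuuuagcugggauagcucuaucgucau
pre-miR-146b: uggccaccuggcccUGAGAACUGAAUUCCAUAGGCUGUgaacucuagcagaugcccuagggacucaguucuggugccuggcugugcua

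The 3′ arms were all but absent. miR-146a-3p had 1 count over the lean libraries and miR-146b-3p also 1, and both had 0 counts over the colesevelam and over the vehicle libraries. In single obese libraries a count of 0 allowed levels of up to 84.7 CPM (colesevelam) and 74.8 CPM (vehicle), for counting error only. CPM relate each count to the total miRNA count of its library and are scaled between libraries by TMM (trimmed mean of M values), which assumes that most miRNAs do not differ.

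Depth bears on every value that follows. The libraries held 32936 to 122880 miRNA counts in the colesevelam group, 37909 to 147314 in the vehicle group and 110353 to 881450 in the lean group. The liver label was checked on miR-122-5p, the defining miRNA of hepatocytes, which averaged 49019 CPM with colesevelam, 38368 CPM with vehicle and 45208 CPM in lean libraries. No library stood apart from its group in either member by Dixon's criterion.

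miR-146a-5p was higher with colesevelam than with vehicle, and on the TMM scale also higher than in lean libraries, a direction that turned round with the authors' size factors. Its lowest, median and highest levels were 1580, 1999 and 2697 CPM in colesevelam libraries, 459, 1003 and 1500 CPM in vehicle libraries and 693, 965 and 1173 CPM in lean libraries. The colesevelam and vehicle libraries did not overlap, but only just: the lowest colesevelam value was 1.05 times the highest vehicle value. The same separation was seen upward in 3.57% of the 112 miRNAs tested. The means were 2071 ± 475 CPM with colesevelam, 968 ± 455 CPM with vehicle and 936 ± 165 CPM in lean libraries (SD, n = 6 each). The fitted ratio of colesevelam to vehicle was 2.17-fold in edgeR's fit over all 18 libraries, a log2 fold change of 1.12 ± 0.27 (SE).

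miR-146b-5p, the scarcer member, followed the same order on the TMM scale, with the same turn against lean. Its lowest, median and highest levels were 294, 491 and 662 CPM in colesevelam libraries, 130, 203 and 299 CPM in vehicle libraries and 104, 197 and 277 CPM in lean libraries. The colesevelam and vehicle groups met at their edges: 5 of the 6 colesevelam libraries were above the highest vehicle library, and colesevelam 4, at 294 CPM, was just under it. The means were 480 ± 157 CPM with colesevelam, 208 ± 59.9 CPM with vehicle and 199 ± 56.3 CPM in lean libraries (SD, n = 6 each). The fitted ratio of colesevelam to vehicle was 2.41-fold, a log2 fold change of 1.27 ± 0.29 (SE).

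**Figure D1:**
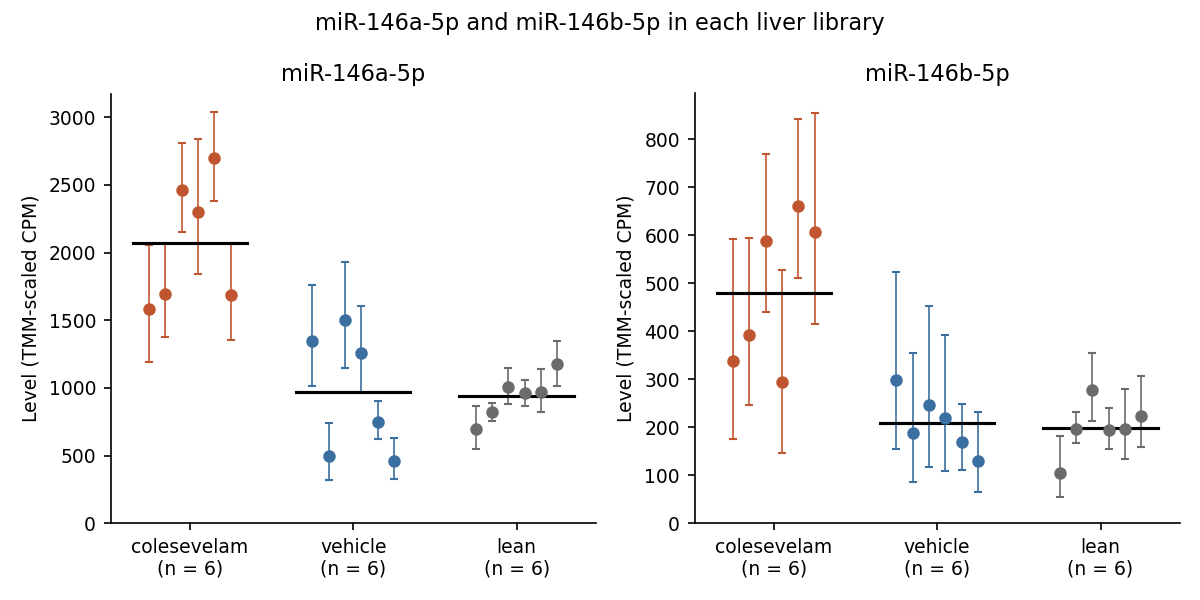
Level of miR-146a-5p (left) and miR-146b-5p (right) in each library, in TMM-scaled CPM, by group; points are libraries, vertical bars are exact 95% Poisson intervals (counting error only) and black lines are group means. All 6 colesevelam libraries of miR-146a-5p lie above the highest vehicle library, at 1500 CPM, and 5 of 6 do so for miR-146b-5p; against lean this order holds on the TMM scale and turns round with the authors' size factors.

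These are the values by which the pair was chosen. In colesevelam against vehicle edgeR called 12 of 112 miRNAs (10.7%), 8 of them higher (7.14%), and both members were among those higher. With the authors' size factors neither was called, at log2 fold changes of 0.98 for miR-146a-5p and 1.09 for miR-146b-5p. By size of rise miR-146b-5p ranked 3 and miR-146a-5p ranked 4 of 112, while the median log2 fold change of all tested miRNAs was -0.01. In colesevelam against lean 24 were called (21.4%), 13 of them higher (11.6%). Both members were among those higher, but this comparison reuses the colesevelam libraries in which the pair was chosen as high. It is not independent evidence.

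Against lean, all colesevelam libraries were above all lean libraries in both members on the TMM scale, a separation seen upward in 5.36% of tested miRNAs. The log2 fold change was 1.15 ± 0.27 for miR-146a-5p and 1.28 ± 0.27 for miR-146b-5p, and the median of all tested miRNAs was -0.08. Both signs depended on the scaling: with the authors' size factors put into edgeR the values turned to -1.43 for miR-146a-5p and -1.32 for miR-146b-5p, and the median of all tested miRNAs to -2.76. For this comparison those factors ran from 1.03 to 1.38 in colesevelam and from 0.712 to 1.12 in lean libraries, although the lean libraries held more miRNA counts. Relative to that median the pair was still higher, by 1.32 for miR-146a-5p and 1.43 for miR-146b-5p. This comparison and the previous one share the colesevelam libraries.

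Vehicle and lean means were close on the TMM scale. The log2 fold change of vehicle against lean was 0.03 ± 0.27 for miR-146a-5p, a ratio of 1.02 with an approximate 95% interval of 0.709 to 1.47. For miR-146b-5p it was 0.01 ± 0.29, a ratio of 1.01 (0.682 to 1.49). Neither was among the 7 miRNAs called in that comparison (6.25%). The intervals leave room for a ratio of 0.709 to 1.47 in miR-146a-5p and 0.682 to 1.49 in miR-146b-5p. Differences within these ranges, in either direction, were not detectable. With the authors' size factors both were at a log2 value of -2.41, close to the median of -2.38 for all tested miRNAs. On the TMM scale colesevelam thus came first in both members, and the vehicle and lean means did not differ beyond their spread.

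The vehicle group was the most uneven in miR-146a-5p. Libraries 1, 3 and 4 were at 1347, 1500 and 1255 CPM, above all 6 lean libraries. Libraries 2, 5 and 6 were at 498, 751 and 459 CPM, and of the lean libraries only the lowest, at 693 CPM, reached below the highest of these. The coefficient of variation was 23.0% with colesevelam, 47.0% with vehicle and 17.6% in lean libraries, where counting error alone gives 9.96%, 14.5% and 7.37%. The vehicle mean of miR-146a-5p falls in a gap between its libraries.

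In miR-146b-5p counting error was a larger share of the spread. The coefficient of variation was 32.6% with colesevelam, 28.7% with vehicle and 28.3% in lean libraries, against 21.8%, 29.3% and 17.2% from counting alone. The vehicle value rests on 79 counts over 6 libraries, with 9 to 26 in each, so its spread was no larger than counting error. miR-146a-5p had 356 counts over the same libraries, 24 to 115 in each.

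In share of all miRNA counts the pair was minor. miR-146a-5p made up a mean of 0.197% with colesevelam, 0.0992% with vehicle and 0.0937% in lean libraries, and ranked 35, 52 and 52 by mean CPM among the 401 rows. miR-146b-5p made up 0.0450%, 0.0214% and 0.0200% in the same order and ranked 68, 94 and 94.

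The balance between the members was not itself used to choose them and needs no scaling between libraries, so it was tested. Both members were, however, chosen as higher with colesevelam than with vehicle, which can keep their ratio alike between those groups. The test of colesevelam against vehicle is therefore not independent of the choice, and it cannot show that the balance was kept. The comparisons with lean share libraries with it. Of the counts of the pair, miR-146b-5p held a lowest, median and highest share of 11.3%, 19.0% and 26.4% in colesevelam libraries, 14.1%, 18.3% and 27.3% in vehicle libraries and 13.0%, 16.8% and 21.6% in lean libraries. The groups overlapped almost wholly. Its mean share was 18.8 ± 4.85% with colesevelam, 19.1 ± 4.89% with vehicle and 17.3 ± 2.95% in lean libraries (SD, n = 6 each). In single libraries miR-146a-5p outnumbered miR-146b-5p by 2.78 to 7.82 times with colesevelam, 2.67 to 6.10 times with vehicle and 3.62 to 6.67 times in lean libraries.

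No difference in this balance passed the threshold in a two-sided exact permutation test over all 924 splits of 12 libraries. The ratio of miR-146b-5p to miR-146a-5p, on the log2 scale with 0.5 added to each count, differed by -0.06 between colesevelam and vehicle (exact permutation p = 0.838, adjusted p = 0.838 over 3 pairs). The 95% interval of that difference, from inverting the same test, was 0.638-fold to 1.44-fold. Colesevelam minus lean was 0.13 (exact permutation p = 0.574, adjusted p = 0.838; 0.775-fold to 1.52-fold). Vehicle minus lean was 0.19 (exact permutation p = 0.420, adjusted p = 0.838; 0.829-fold to 1.61-fold). A shift between the members of up to about these sizes could not be seen. The SD of the log2 ratio between libraries was 0.47 with colesevelam, 0.44 with vehicle and 0.29 in lean libraries, where counting error alone gives 0.35, 0.47 and 0.27.

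**Figure D2:**
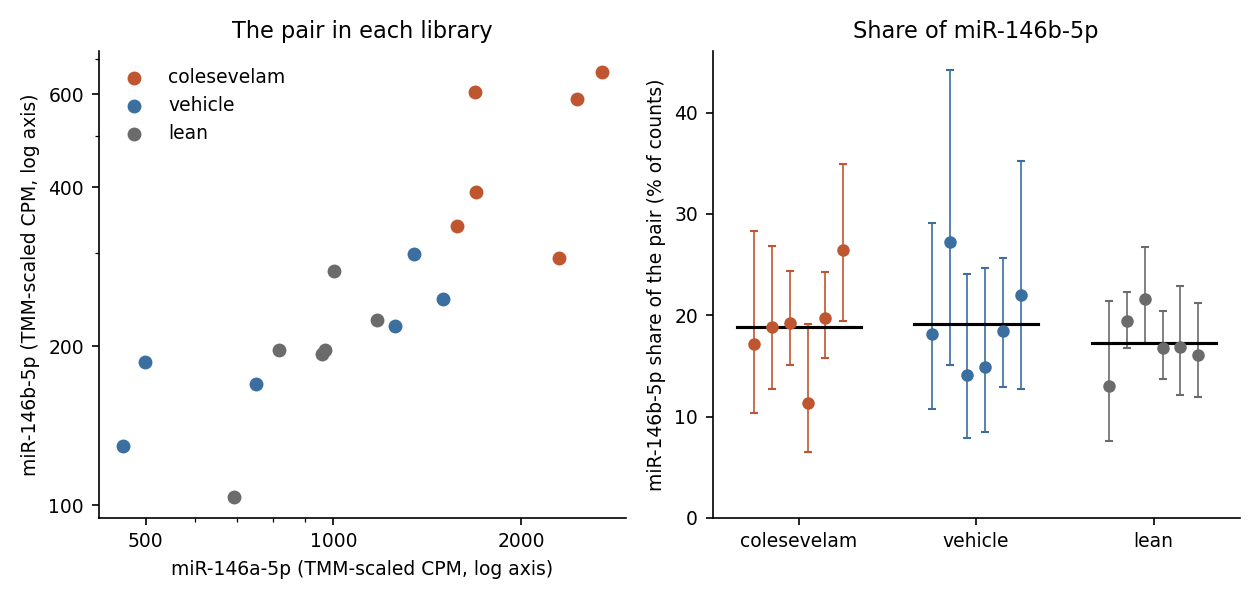
Left: miR-146b-5p against miR-146a-5p in each of the 18 libraries, in TMM-scaled CPM on log axes. Right: miR-146b-5p as a percentage of the counts of the pair in each library, with 95% Wilson intervals (counting error only) and group means as black lines; the group means lie between 17.3% and 19.1%.

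Whether the members were high in the same libraries was tested within each group. Over the 6 vehicle libraries Pearson's r of log2 CPM was 0.86 (exact permutation p = 0.0306 over 720 orders, adjusted p = 0.0917 over 3 groups) and Spearman's rho 0.89 (exact permutation p = 0.0333, adjusted p = 0.10). In lean libraries r was 0.81 (exact permutation p = 0.0653, adjusted p = 0.0979) and rho 0.77 (exact permutation p = 0.103, adjusted p = 0.154). In colesevelam libraries r was 0.38 and rho 0.43 (exact permutation p = 0.432 and 0.419, adjusted p the same). None passed the threshold after adjustment. Without the 2 libraries farthest from the median of miR-146a-5p, r was -0.15 with colesevelam, 0.85 with vehicle and 0.50 in lean libraries. So few libraries then remain that these values cannot show whether a relation holds. Over single left-out libraries r ran from 0.08 (without colesevelam 5) to 0.74 (without colesevelam 4) with colesevelam. It ran from 0.77 to 0.94 with vehicle, and from 0.41 (without lean 1) to 0.89 in lean libraries. The part of reads that match both sequences was not tested.

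Of all 111 other tested miRNAs the other member was the one most like each member in its deviations from group means over the 18 libraries, at r = 0.63. This likeness is a description, since all rows share the depth and base composition of their library. For miR-146a-5p the next were miR-16-5p (0.57), miR-26b-5p (0.55), the erythrocyte miRNA miR-451-5p (0.52) and miR-10a-5p (0.52). For miR-146b-5p they were miR-16-5p (0.54), miR-10a-5p (0.51), miR-26b-5p (0.45) and miR-301a-3p (0.38). The deviations of miR-146a-5p followed the library's slope of level on GC content at r = -0.33 and its log2 total count at r = -0.07, and those of miR-146b-5p at -0.34 and 0.23.

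Of the other NF-κB-linked miRNAs listed, only miR-10a-5p was called between colesevelam and vehicle. The 4 induced and 7 restraining miRNAs tested are too few to tell their share called from that of all tested miRNAs. Of 15 miRNAs listed as induced by NF-κB or Toll-like receptors 11 had a row and 4 could be tested. With colesevelam against vehicle none of the 4 was called, in a comparison where 10.7% of all tested miRNAs were. Their median log2 fold change was -0.06, against -0.01 for all tested miRNAs. miR-21-5p, the main arm of the abundant injury-linked miR-21, was at -0.19 ± 0.24 (edgeR adjusted p = 0.745), and miR-125b-5p at 0.20 ± 0.24 (edgeR adjusted p = 0.732). miR-301a-3p was at 0.07 ± 0.33. The minor arm miR-21-3p was at -0.78 ± 0.31 (edgeR adjusted p = 0.136), opposite in sign to the pair.

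The best known partner of miR-146a in inflammatory signalling, miR-155-5p, was too scarce to test. It had 7 counts over the colesevelam, 1 over the vehicle and 12 over the lean libraries. miR-132-3p, another NF-κB-linked miRNA of activated myeloid cells, had 8, 12 and 15 counts, and miR-221-3p had 34, 33 and 162. These counts are unscaled and do not show a direction against lean. Libraries averaged 66278 miRNA counts with colesevelam, 66503 with vehicle and 328766 in the lean group. Differences in these miRNAs were not detectable at this depth.

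Of 10 miRNAs described as restraining NF-κB or Toll-like receptor signalling, as miR-146 does, 9 had a row and 7 could be tested. With colesevelam against vehicle, where 7.14% of all tested miRNAs rose, miR-10a-5p was the 1 of the 7 that rose, to 58038 ± 12309 CPM with colesevelam, against 33944 ± 8189 CPM with vehicle (SD, n = 6 each; log2 fold change 0.77 ± 0.20, edgeR adjusted p = 0.0154). Its call was lost without vehicle 6 (edgeR adjusted p = 0.0550) and with the authors' size factors (log2 fold change 0.47, edgeR adjusted p = 0.720), and also with no filter on low counts and with miR-192-5p left out. The other 6 were not called, and the list's median was -0.13. miR-16-5p was at 0.19 ± 0.21, let-7i-5p, which targets the Toll-like receptor TLR4 in human cells, at 0.07 ± 0.22, and miR-26b-5p at -0.13 ± 0.20. miR-223-3p, a neutrophil and macrophage miRNA, was not tested. It had 8 unscaled counts with colesevelam, 7 with vehicle and 104 in the lean libraries, which were sequenced more deeply.

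Against lean the listed NF-κB-linked miRNAs called on the TMM scale were miR-21-3p and miR-10a-5p. In vehicle against lean 1 of the 4 induced miRNAs rose, miR-21-3p (log2 fold change 2.73 ± 0.32, edgeR adjusted p = 2.12e-06), and none of the 7 restraining ones was called, while 6.25% of all tested miRNAs were. In colesevelam against lean miR-21-3p rose (1.95 ± 0.32, edgeR adjusted p = 0.000168) and so did miR-10a-5p (0.57 ± 0.20, edgeR adjusted p = 0.0458), in a comparison where 11.6% of all tested miRNAs rose. That call of miR-10a-5p was kept in 4 of 18 fits that each left out a library and in 6 of the 12 other planned fits. Those 6 include the fit with the authors' size factors, where it was called lower. On the authors' scaling miR-10a-5p in colesevelam against lean turned to -2.07 and miR-21-3p was not called, at -0.92 with colesevelam and 0.34 with vehicle. The lists' medians in vehicle against lean were 0.14 and -0.19, beside 0.01 for all tested miRNAs.

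**Figure D3:**
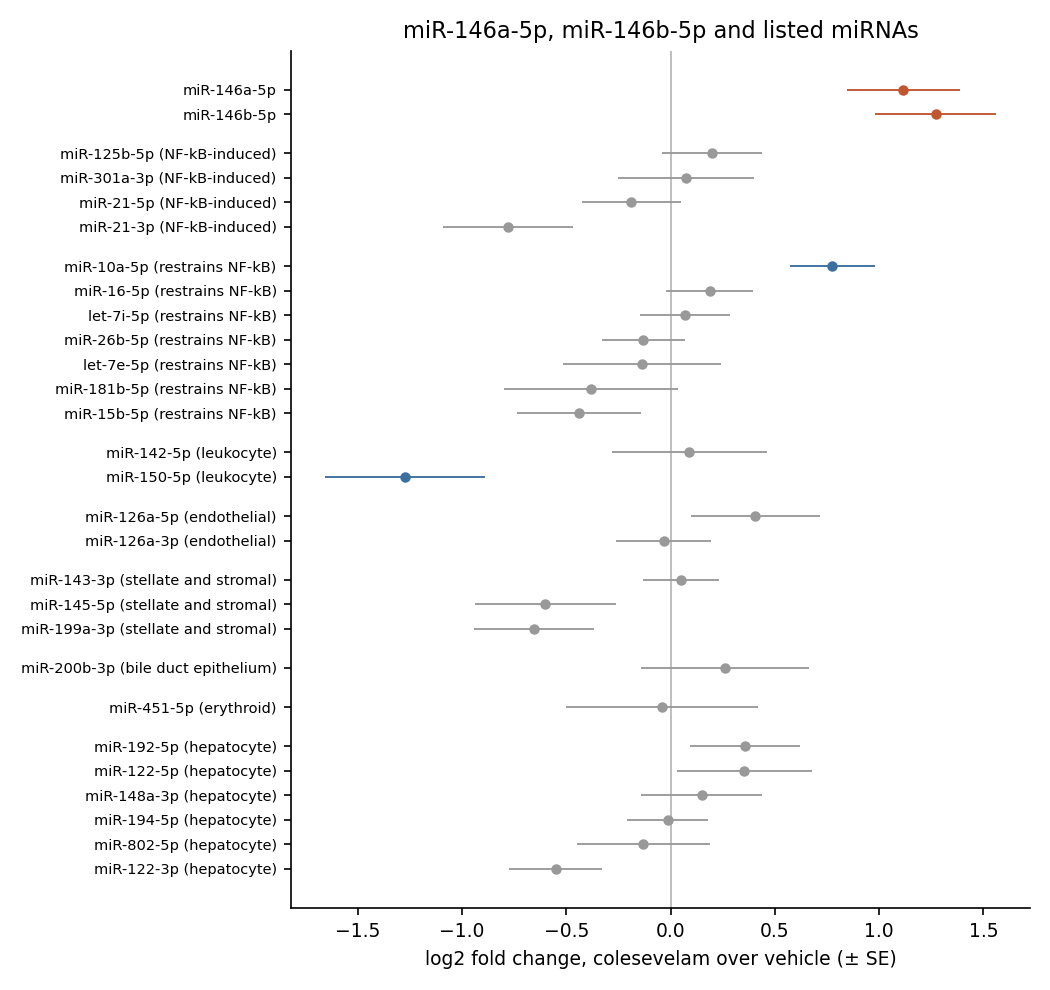
Log2 fold change (± SE) of colesevelam over vehicle from edgeR for miR-146a-5p and miR-146b-5p (top, orange) and for every tested member of the NF-κB-linked and cell type lists, with those called in blue. The pair lies at 1.12 and 1.27, miR-10a-5p at 0.77 and miR-150-5p at -1.27, and the other listed miRNAs are not called.

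Leukocyte miRNAs were read beside the pair, which immune cells express. In bulk liver, fewer cells of a type and less RNA per cell cannot be told apart. All 6 leukocyte markers listed had a row and none was at 0 in any group. Their summed level ran from 777 to 1574 CPM (median 933) with colesevelam, from 1056 to 1614 CPM (median 1442) with vehicle and from 1599 to 3796 CPM (median 2037) in lean libraries. The colesevelam and vehicle ranges overlapped. Their part in the level of the pair was not tested. Only miR-142-5p and miR-150-5p could be tested.

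miR-142-5p, which marks blood cells broadly, was at 0.09 ± 0.37 in colesevelam against vehicle (edgeR adjusted p = 0.936). miR-150-5p, which is rich in mature B and T cells, fell to 305 ± 99.4 CPM with colesevelam, against 725 ± 319 CPM with vehicle (log2 fold change -1.27 ± 0.38, edgeR adjusted p = 0.0340), as 3.57% of all tested miRNAs did. With each library left out in turn that call was kept 9 times in 18 and otherwise lost (edgeR adjusted p = 0.0578 to 0.129), and it was kept in 7 of the 12 other planned fits. It was lost with the authors' size factors (log2 fold change -1.58, edgeR adjusted p = 0.0672), upper-quartile factors, limma-voom, the replicate block and libraries of one label number summed. Against lean both fell with colesevelam, miR-142-5p to 648 ± 281 CPM, against 1493 ± 853 CPM in lean (edgeR adjusted p = 0.0236), and miR-150-5p to 305 ± 99.4 CPM, against 719 ± 274 CPM in lean (edgeR adjusted p = 0.0179), in a comparison where 9.82% of tested miRNAs fell. That call of miR-150-5p was lost with upper-quartile factors and with libraries of one label number summed. In vehicle against lean miR-142-5p fell by 1.27 on the log2 scale (edgeR adjusted p = 0.0328), as 2.68% of tested miRNAs did. The calls of miR-142-5p against lean held in 11 (colesevelam) and 6 (vehicle) of 18 fits that left out a library.

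Few markers of other liver cell types could be tested. Between colesevelam and vehicle none of the 2 endothelial, 3 stellate and stromal, 1 bile duct, 1 erythroid and 6 hepatocyte miRNAs tested was called, in a comparison where 10.7% of all tested miRNAs were. These are too few to tell their share called from that of all tested miRNAs. Of the bile duct list 5 miRNAs had a row, and of the erythroid list 3. Against lean, miR-200b-3p, a miRNA of bile duct and other epithelia, fell with colesevelam (log2 fold change -1.68 ± 0.34, edgeR adjusted p = 0.00137) and with vehicle (-1.94 ± 0.35, edgeR adjusted p = 0.000653). miR-122-3p, the minor arm of the hepatocyte miRNA, fell with colesevelam against lean (-0.85 ± 0.22, edgeR adjusted p = 0.00883). No other hepatocyte miRNA tested was called there, and the main arm miR-122-5p was at 0.12 ± 0.32. Of all tested miRNAs 9.82% fell with colesevelam against lean and 2.68% with vehicle against lean. The 3 calls of miR-200b-3p and miR-122-3p were kept in 18 of 18 fits that left out a library and in 12 of 12 other planned fits. Those 12 include the authors' size factors, with which 109 and 110 of 112 miRNAs were called against lean, so a call kept there says little. The summed endothelial level was 5058 to 12563 CPM with colesevelam, 3475 to 7947 CPM with vehicle and 5368 to 12310 CPM in lean libraries. For the stellate and stromal list it was 32781 to 62392 CPM, 35061 to 50461 CPM and 33742 to 48623 CPM in the same order. For the bile duct list it was 170 to 226 CPM, 74.8 to 279 CPM and 401 to 654 CPM, and for the hepatocyte list 266327 to 497112 CPM, 215427 to 352746 CPM and 288207 to 483274 CPM. The erythroid list summed to 56.8 to 451 CPM, 106 to 340 CPM and 197 to 513 CPM. None of these 5 lists had a member at 0 in every library of a group. The part of these cell types in the level of the pair was not tested.

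The size of the difference from vehicle was refitted with single libraries left out and with other settings. These refits reuse the values by which the pair was chosen and are not independent evidence of a response. With each of the 18 libraries left out in turn the log2 fold change ran from 1.05 to 1.39 for miR-146a-5p and from 1.21 to 1.46 for miR-146b-5p. The rounded counts of the pair were also summed as 1 row, an alternative chosen after seeing the data. The summed pair was at 1.15 in colesevelam against vehicle, 1.13 in colesevelam against lean and -0.02 in vehicle against lean. With the GC slope of each library as a covariate, also chosen after seeing the data, the values for colesevelam against vehicle were 1.02 for miR-146a-5p and 1.19 for miR-146b-5p. The slope averaged -0.0743, -0.0554 and -0.0767 log2 units per percent of GC in the colesevelam, vehicle and lean groups.

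**Figure D4:**
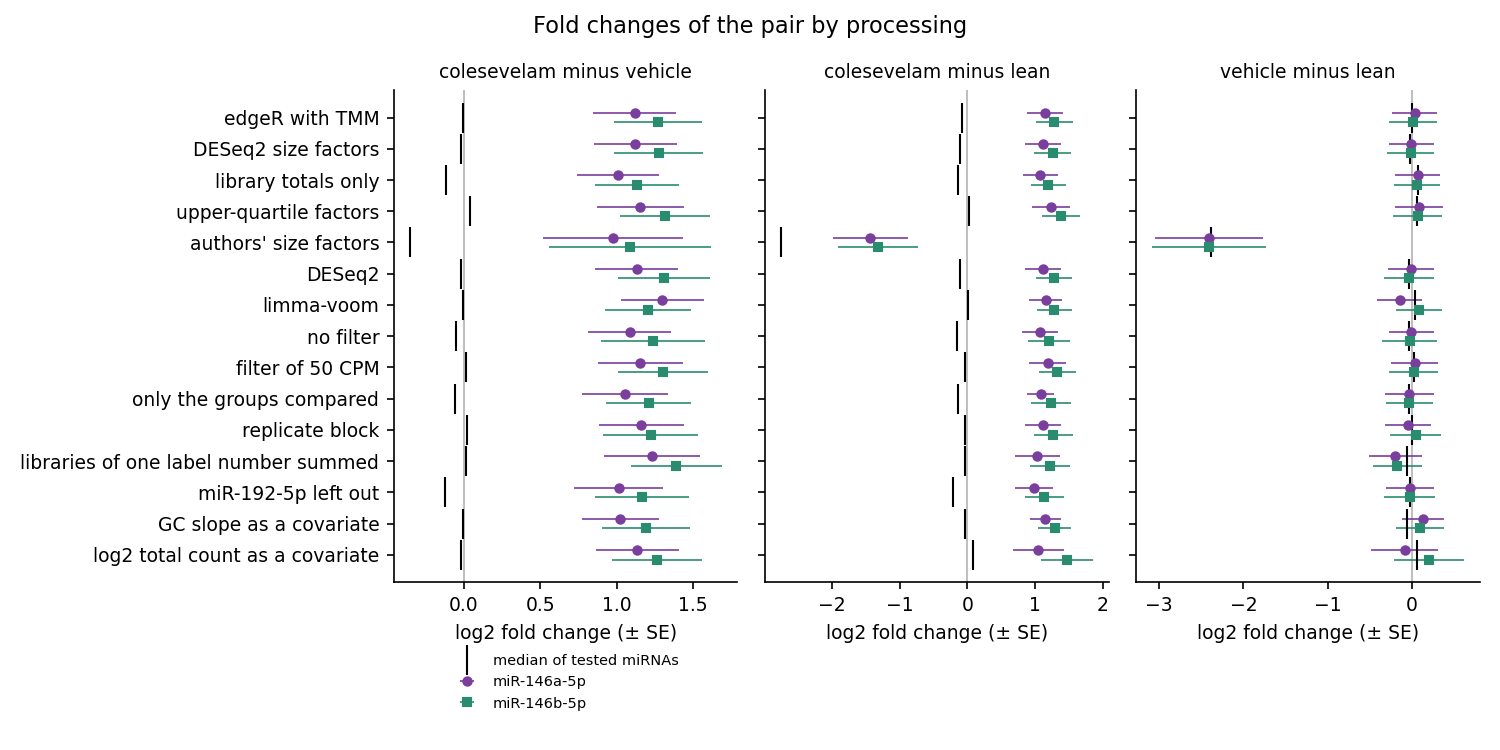
Log2 fold change (± SE) of miR-146a-5p (circles) and miR-146b-5p (squares) under each way of processing, for the 3 comparisons; black ticks are the median of the tested miRNAs. Between colesevelam and vehicle all values are positive; against lean the authors' size factors turn both members of the colesevelam comparison negative, to -1.43 and -1.32, and move the median to -2.76.

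The authors' own fold changes had the same direction between the obese groups. They come from the same counts by which the pair was chosen, so they are a description and not independent evidence. In the authors' deposited table the log2 fold change of colesevelam over vehicle was 0.98 for miR-146a-5p and 1.09 for miR-146b-5p, with a median of -0.36 over the 127 rows given. In the authors' deposited table colesevelam over lean was -1.43 for miR-146a-5p and -1.33 for miR-146b-5p, with a median of -2.87 over 182 rows. For vehicle over lean the authors' deposited table gave -2.41 and -2.42, with a median of -2.41 over 183 rows. Relative to these medians the pair was 1.34 and 1.45 above the other miRNAs in colesevelam over vehicle, 1.44 and 1.55 above them in colesevelam over lean, and level with them in vehicle over lean.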

How the data were processed

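The deposited table gives unscaled estimated counts of 401 mature miRNAs in 18 libraries, and 297 of its 7218 values are not whole. The table also holds, per the file headers, mean scaled counts, log2 fold changes, p-values and a mark of significance (another, coded value) from the authors' comparisons. Bowtie 1.1.2 and DESeq2 1.18.1 are named, per the submitters' processing notes. Trimming, build, annotation and counting tool: not given in the sources used here.

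Counts were rounded, rows kept by filterByExpr (minimum count 10, minimum total 15; 112 rows with 99.5% of counts), and TMM factors computed (0.814 to 1.19). One fit over all libraries used the quasi-likelihood test (robust) of edgeR 4.0.16 under R 4.3.3, with Benjamini-Hochberg adjustment over 112 rows at 0.05. Ratios and correlations used exact permutation tests. The authors' size factors were recovered from the deposited counts and mean scaled counts. The scripts were tested on simulated data. limma 3.58.1 and DESeq2 1.42.0 gave alternatives, as did other scalings, filters and left-out libraries. The members, the lists (from general knowledge of miRNAs) and the rule for named miRNAs (the pair and its other arms, the 5 most alike per member, and in each list those called and up to 4 others by level) were chosen with earlier results of these data known. Poisson and Wilson intervals and floors cover counting error only, as PCR copies were not removed by molecular identifiers as far as the labels say. The intervals of fold changes and of the ratio of the members also hold the spread between libraries.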

Additional observations from a re-analysis of the deposited data

How the results depend on the processing

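Scaling against the lean group was the choice that mattered most. With the authors' size factors colesevelam minus lean turned to -1.43 for miR-146a-5p and -1.32 for miR-146b-5p, vehicle minus lean moved to -2.41 for both, and 109 and 110 miRNAs were called in those comparisons, of which 25 and 25 were listed miRNAs; in colesevelam minus vehicle 2 miRNAs and 0 listed ones were then called, and the pair was not, at 0.98 for miR-146a-5p and 1.09 for miR-146b-5p. The cause was not tested, here or for the other moved counts below. Values of vehicle minus lean ran from -0.23 to 0.17 and from -0.17 to 0.14 over left-out libraries, and those of colesevelam minus lean from 1.03 to 1.31 for miR-146a-5p and from 1.12 to 1.46 for miR-146b-5p. With the log2 total count as a covariate, chosen after seeing the data, colesevelam minus lean was 1.05 for miR-146a-5p and 1.47 for miR-146b-5p. In that fit miR-146a-5p was narrowly no longer called against lean, while miR-146b-5p was. Most lean libraries were deeper, so the fit can hardly separate depth from group, and these calls do not set the members apart.

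In colesevelam minus vehicle 12 miRNAs were called, against 6 with upper-quartile factors, 7 with no filter and 7 with libraries of one label number summed. The number ran from 7 (without vehicle 6) to 14 over left-out libraries. With the GC slope as a covariate, also chosen after seeing the data, 25, 44 and 16 were called in colesevelam minus vehicle, colesevelam minus lean and vehicle minus lean. Listed miRNAs called in colesevelam minus vehicle were 2, against 1 with upper-quartile factors, limma-voom, no filter, summed libraries or miR-192-5p left out, and 5 with the GC slope; they ran from 0 to 3 over left-out libraries.

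The label sample numbers did not pair libraries: the correlation of deviations of same-numbered libraries ran from -0.64 to 0.58. With a replicate block the pair was at 1.16 and 1.22 in colesevelam minus vehicle, 7 miRNAs and 1 listed one were called there, and the ratio of the members differed by the same amounts as without it (exact sign-flip permutation p = 0.781, 0.562 and 0.5). The ratio stayed under the threshold in every alternative run. The lean correlation of the pair passed with library totals in place of TMM (r = 0.83, exact permutation adjusted p = 0.0458) and its r ran from 0.41 to 0.89 over left-out libraries. Depth limits miR-146b-5p most, with 9 to 26 counts in a vehicle library.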

Other observations

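In 5 pairs of libraries the labels share a number, and what that number means is not stated. miR-146a-5p was at 1696 and 2464 CPM in colesevelam 2 and 3, at 2301 and 2697 CPM in colesevelam 4 and 5, at 1500 and 1255 CPM in vehicle 3 and 4, at 693 and 819 CPM in lean 1 and 2, and at 959 and 971 CPM in lean 4 and 5. In that order the second library differed from the first by 0.54, 0.23, -0.26, 0.24 and 0.02 on the log2 scale. The SD of single libraries within a group was 0.50, which is not the same measure as a gap between 2 libraries. Whether libraries that share a number are more alike than others was not tested. For miR-146b-5p the gaps ran from 0.02 in lean 4 and 5 to 1.17 in colesevelam 4 and 5, a pair with 11 and 66 counts.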
